A study of Mus musculus with 32 samples.

Results

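The genes described here set the threshold for death in developing and mature lymphocytes: the antigen receptor induced nuclear receptors Nr4a1 and Nr4a3, the BH3-only death genes Bcl2l11, Hrk, Pmaip1 and Bbc3, the pore-forming effector Bax, and the survival genes Bcl2, Bcl2l1 and Mcl1. They were chosen by name, as genes with known roles in thymocyte selection or in the BCL2 family. Of the 10 genes listed, 9 had a probe set that carried their symbol alone, of 18193 genes so measured, and Bax was not analysed here. The 9 genes had 28 probe sets, of which 22 in each lymph node and in the spleen, and 24 in the thymus, passed the filter on low signal. The probe set with the highest mean signal represented each gene, and all 9 of these passed.

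The arrays compared CD30L transgenic mice with non-transgenic littermates, called wild type, all female C57BL/6 mice aged 12 weeks. The transgene put CD30 ligand (CD30L, gene symbol Tnfsf8), a TNF family ligand of the receptor CD30, under the CD2 promoter, which is active in T cells. Each genotype had 4 mice, and every mouse gave thymus, spleen, mesenteric lymph node and peripheral lymph node, which makes 32 arrays. In bulk tissue such as this, fewer cells of a type and less RNA per cell cannot be told apart.

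Thymocytes whose antigen receptor binds self ligands strongly are deleted by apoptosis, and those that receive no signal die by neglect. In the mitochondrial pathway, BH3-only proteins bind and block the survival proteins of the BCL2 family or activate BAX and BAK, which then permeabilise the outer mitochondrial membrane. BIM, the product of Bcl2l11, is the main BH3-only protein of negative selection in mice, and NR4A1 (Nur77) and NR4A3 are made within a short time of a strong receptor signal. Thymocytes at the double-positive stage have little BCL2 and depend on BCL-XL, the product of Bcl2l1, while mature T and B cells regain BCL2. CD30 belongs to the TNF receptor family and has been studied in mice for a part in negative selection.

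The promoters of 3 members are shown: those of both nuclear receptor genes, which are known targets of receptor signals, and that of Hrk, the member whose genotypes stood farthest apart in peripheral node and spleen. Each window holds the 250 bases before the annotated start on the plus strand, from RefSeq on GRCm38.p6, and capitals mark TGACG or its reverse complement CGTCA, the core that CREB and ATF factors bind. The windows lie at chr15:101266596-101266845 for Nr4a1, chr4:48045055-48045304 for Nr4a3 and chr5:118169514-118169763 for Hrk.
Nr4a1: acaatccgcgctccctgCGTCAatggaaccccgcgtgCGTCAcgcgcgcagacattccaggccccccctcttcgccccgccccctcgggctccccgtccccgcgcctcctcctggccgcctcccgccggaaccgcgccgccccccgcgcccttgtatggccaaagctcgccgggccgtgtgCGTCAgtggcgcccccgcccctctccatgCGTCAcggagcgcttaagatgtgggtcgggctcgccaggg
Nr4a3: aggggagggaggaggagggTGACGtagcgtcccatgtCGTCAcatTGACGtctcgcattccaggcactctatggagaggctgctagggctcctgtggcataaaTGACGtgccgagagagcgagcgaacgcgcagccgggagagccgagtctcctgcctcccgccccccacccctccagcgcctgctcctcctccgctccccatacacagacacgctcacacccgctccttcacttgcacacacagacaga
Hrk: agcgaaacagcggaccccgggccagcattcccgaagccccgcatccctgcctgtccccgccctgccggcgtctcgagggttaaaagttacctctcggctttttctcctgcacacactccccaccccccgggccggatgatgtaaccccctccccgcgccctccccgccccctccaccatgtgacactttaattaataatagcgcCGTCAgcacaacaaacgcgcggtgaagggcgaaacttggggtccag
Nr4a1 and Nr4a3 each held 4 matches and Hrk held 1. Searched on both strands, TGACG occurred in 17.8% of 32851 promoter windows of this length, and 0.137% of them held 4 or more matches. Of 14 windows of member genes, 5 held the core. These windows are not a count of genes: Bcl2l11, Bcl2l1 and Bbc3 had several each, Bax was included and Pmaip1 had none. The full palindrome TGACGTCA, which contains the core on both strands, occurred in 1.55% of all windows and in 0 of the 14. The GC box GGGCGG was in 11 of the 14 windows against 32.7% of all windows, and the AP-1 motif TGANTCA in 0 of the 14 against 6.75%. These matches are letters in a window and were not tested for binding.

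The tissues showed the markers of their labels. Rag1, the recombinase gene of immature lymphocytes, had deposited intensities of 5256 to 7478 in the thymus and 2.6 to 31.0 in both lymph nodes, while in the spleen its highest value, 589, was on the array of wild type mouse 4. Tnfsf8 itself had overlapping intensities, for example 30.9 to 80.9 in transgenic thymus and 48.3 to 61.9 in wild type thymus, so that probe set gave no check of the transgene. On 8 arrays a list of pancreas or muscle markers, or Rag1 in the spleen, stood out: 3 of peripheral node, 3 of mesenteric node, 1 of spleen and 1 of thymus. Thymus calls that were lost without these arrays are named beside their values. Adipocyte markers were not used to choose them. The mean of 4 such markers was 9.13 to 11.02 on the node arrays, 7.28 to 8.50 in thymus and 4.98 to 5.73 in spleen. Leaving out the 8 arrays therefore did not remove fat signal from the nodes, and its part in the tissue differences was not tested. Levels below are log2 of the intensity plus 16 after the arrays had been brought to 1 distribution, so they can be set against each other between samples of a gene but not between genes.

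The first comparison asked whether the transgene changed these genes within a tissue. None of the 9 members passed the test in any tissue (limma, Benjamini-Hochberg adjusted p under 0.05), where 0.037% of probe sets did so in peripheral node, 0% in mesenteric node, 0.0111% in spleen and 0.0037% in thymus. The median difference of the 9 members, transgenic minus wild type, was -0.08 in peripheral node, 0.03 in mesenteric node, -0.04 in spleen and 0.15 in thymus on the log2 scale. Over all probe sets tested these medians were -0.01, 0.01, 0.01 and -0.00. Before adjustment, 1 member had a p under 0.05 in peripheral node, 0 in mesenteric node, 1 in spleen and 1 in thymus, where 8.36%, 4.71%, 8.56% and 7.26% of all probe sets did. Genotypes did not overlap for 1 member in peripheral node, 0 in mesenteric node, 1 in spleen and 0 in thymus, against 5.35%, 3.94%, 4.88% and 4.61% of all probe sets. Over all member probe sets that passed the filter, an unadjusted p under 0.05 was held by 2 in peripheral node, 0 in mesenteric node, 2 in spleen and 1 in thymus, and none passed after adjustment. Beside the representatives, these were a Bcl2l11 probe set in peripheral node, at -0.41 ± 0.18, and a Bcl2 probe set in spleen, given below. Hrk had the largest differences in peripheral node and spleen.

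**Figure D1:**
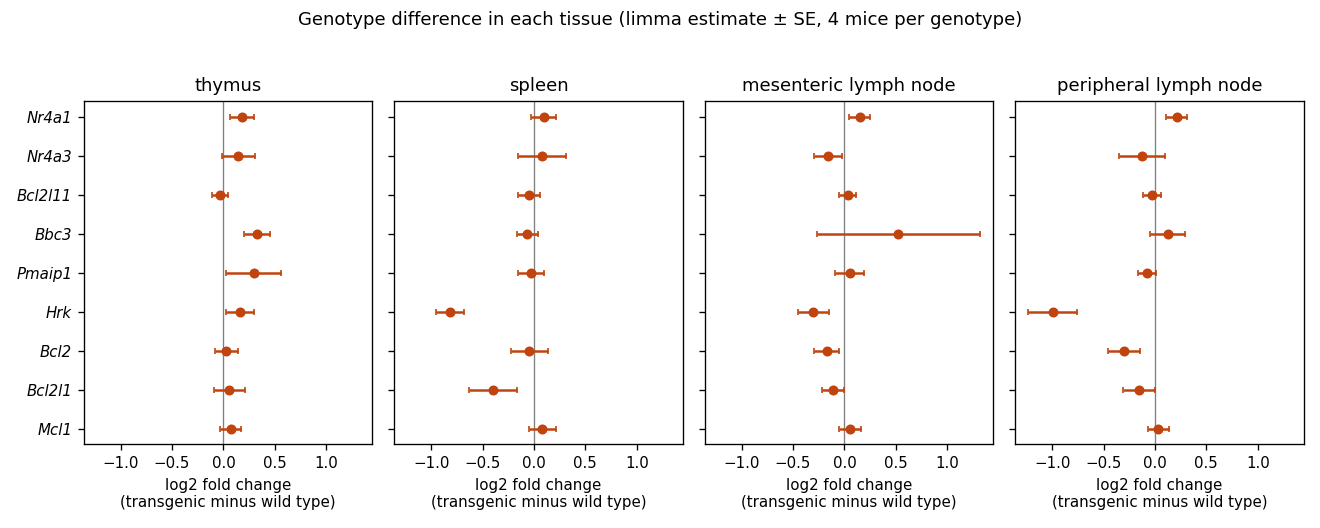
Difference between CD30L transgenic and wild type mice (log2, transgenic minus wild type) for the 9 members in each of 4 tissues. Points are limma estimates and bars their standard errors, with 4 mice per genotype. Hrk lies at -0.996 in peripheral lymph node and -0.82 in spleen, and the other members lie between -0.40 and 0.33 apart from Bbc3 in mesenteric node, at 0.53.

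Hrk encodes Harakiri, a BH3-only protein that binds BCL2 and BCL-XL and is known from neurons and haematopoietic progenitors deprived of growth factor. In peripheral node, Hrk levels were 5.17, 6.25, 6.26 and 5.72 in transgenic mice, against 6.74, 6.96, 6.74 and 6.94 in wild type mice. Every transgenic node lay below every wild type node. The deposited intensities were 21.7, 60.6, 73.5 and 39.8 in transgenic nodes, against 94.5, 119, 80.8 and 74.3 in wild type nodes, so the groups did not overlap before normalization either, although one pair of arrays differed by less than 1 unit. The log2 difference was -0.996 ± 0.234 (SE, n = 4 each), with an unadjusted p of 0.00234 and an adjusted p of 0.288 in limma. An exact two-sided permutation test gave 0.0286, which is the smallest p that 4 against 4 allows.

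The spleen showed the same order. Hrk levels were 6.40, 6.09, 6.16 and 6.20 in transgenic spleens, against 6.99, 6.76, 7.07 and 7.29 in wild type spleens, and the groups did not overlap. The log2 difference was -0.82 ± 0.14 (SE, n = 4 each), with an unadjusted p of 0.000215 and an adjusted p of 0.321 in limma. Both Hrk results are among the counts of members given above, which are near the share of all probe sets.

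In mesenteric node the Hrk levels were 6.45, 5.87, 6.15 and 5.99 in transgenic mice, against 6.30, 6.71, 6.30 and 6.36 in wild type mice. One transgenic array, of mouse 1, lay among the wild type ones, and the difference was -0.30 ± 0.15 with an adjusted p of 0.972 (limma, SE, n = 4 each). On that array the ratio of the 3′ to the 5′ Actb probe set was 3.10, against 1.59 to 1.75 on the other mesenteric arrays. Its pancreas marker mean was 12.8. Without the arrays with signal of another tissue the difference was -0.40 (adjusted p = 0.680, limma). In thymus the levels were 7.20, 6.95, 6.72 and 6.59 in transgenic mice, against 6.85, 6.68, 6.67 and 6.62 in wild type mice. The thymus groups overlapped, and the difference was 0.16 ± 0.14 with an adjusted p of 0.820.

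**Figure D2:**
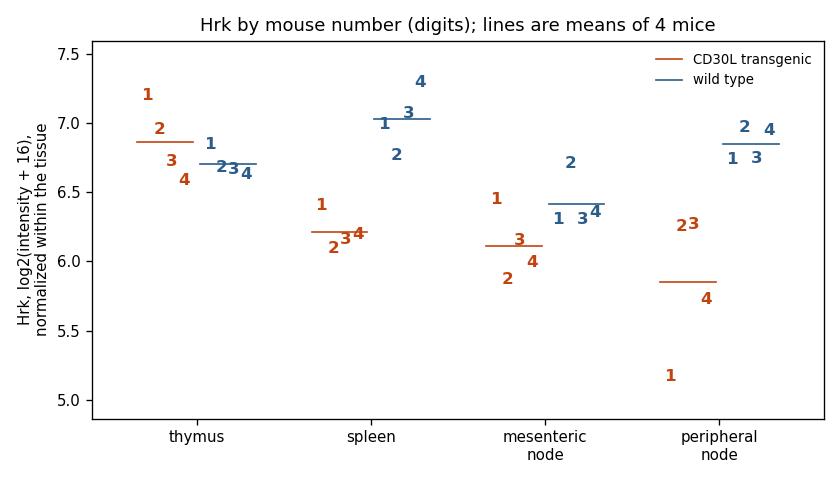
Hrk level (log2, normalized within each tissue) on each array, with transgenic mice to the left of wild type mice. Digits are mouse numbers and lines are group means. In peripheral lymph node and spleen all 4 transgenic values lie below all 4 wild type values, while the groups overlap in mesenteric node and thymus.

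A single limma fit over all 32 arrays, which shares the estimate of spread between tissues, passed Hrk in peripheral node (-0.96, adjusted p = 0.0063) and in spleen (-0.82, adjusted p = 0.0251), where the separate fits did not. That fit also called more of all probe sets, 0.396% in peripheral node and 0.825% in spleen. It treats the 4 arrays of each of 8 mice as independent. With the mouse as a random block, an alternative added after the data were seen, the estimated correlation of arrays of a mouse was 0.0160 and the adjusted p of Hrk was 0.0068 in peripheral node and 0.0260 in spleen, where 107 and 224 of 27022 probe sets passed. Adding 64 in place of 16 before taking logs brought the peripheral node difference to -0.61 and the spleen difference to -0.55. With the filter at the 60th percentile, Hrk was tested in thymus only. The second Hrk probe set was at or below 0 on 4 arrays, is of low signal and did not pass the filter. Its means were 5.02 in transgenic and 4.61 in wild type peripheral node, and 5.21 and 5.16 in spleen, with overlapping groups. The lower transgenic level was thus seen on the representative probe set only. Germinal centre B cell markers differed in peripheral node and spleen, and in mesenteric node too, where the Hrk groups overlapped. The mean of 7 markers was 7.59 to 8.56 in transgenic and 6.51 to 6.84 in wild type peripheral node. In spleen it was 7.46 to 8.70 in transgenic and 6.18 to 6.53 in wild type mice. In mesenteric node that mean was 8.64 to 8.87 in transgenic and 7.99 to 8.44 in wild type mice. Plasma cell markers also lay higher without overlap, at 8.92 to 9.36 in transgenic and 8.29 to 8.89 in wild type peripheral node. They were at 9.39 to 9.95 and 8.81 to 9.27 in spleen, and at 9.43 to 9.57 and 9.18 to 9.32 in mesenteric node. Cell cycle genes lay higher in transgenic peripheral node (8.42 to 9.14, against 7.78 to 7.93) and mesenteric node (9.11 to 9.41, against 8.61 to 8.85). In spleen they overlapped. T cell markers lay lower in transgenic peripheral node (10.23 to 10.43, against 10.48 to 10.57 in wild type) and higher in transgenic spleen (9.15 to 9.51, against 8.82 to 9.06). The part of these markers in the Hrk difference was not tested.

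In spleen and thymus, RNA quality differed between mice 1 and 2 and mice 3 and 4 in both genotypes. The ratio of the 3′ to the 5′ Actb probe set in spleen was 2.83 and 3.57 in transgenic and 3.25 and 3.58 in wild type mice 1 and 2, and 1.68 and 1.85 in transgenic and 1.69 and 1.65 in wild type mice 3 and 4. In thymus it was 2.25 and 2.23 in transgenic and 1.78 and 1.68 in wild type mice 1 and 2, and 1.34 to 1.43 in all mice 3 and 4. Within mice 1 and 2 the Hrk difference was -1.17 in peripheral node and -0.65 in spleen, and within mice 3 and 4 it was -0.83 and -0.97. With these pairs of mice as a block, Hrk did not pass in limma (adjusted p = 0.306 in peripheral node and 0.262 in spleen).

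Whether the genotype difference of Hrk itself differed between tissues was tested on each mouse's difference between a pair of tissues. Thymus minus spleen averaged 0.79 in transgenic mice and -0.20 in wild type mice, a difference of 0.99 ± 0.18 (SE, n = 4 each) with an unadjusted p of 0.000478 and an adjusted p of 0.504 in limma. Thymus minus peripheral node averaged 1.05 in transgenic mice and -0.07 in wild type mice, a difference of 1.12 ± 0.32 (adjusted p = 0.373). None of the 9 members passed this test in any of the 6 pairs of tissues (limma), where 0.0111% of all probe sets did so for thymus minus spleen and 0% for each other pair. Before adjustment, Hrk had a p under 0.05 for thymus minus peripheral node, mesenteric node and spleen and for spleen minus mesenteric node, and Bbc3 for thymus minus spleen. All probe sets reached that in 9.71%, 5.01% and 8.46% of cases for thymus minus peripheral node, mesenteric node and spleen, in 7.6% and 5.96% for spleen minus peripheral and mesenteric node, and in 5.39% between the nodes.

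Bbc3 encodes PUMA, a BH3-only protein induced by p53 and by withdrawal of growth factors. In thymus its levels were 8.39, 8.27, 8.12 and 8.05 in transgenic mice, against 8.01, 8.07, 7.63 and 7.82 in wild type mice. The transgenic levels were mostly the higher ones, but the lowest of them lay below the highest wild type level. The difference was 0.33 ± 0.13 (SE, n = 4 each), with an unadjusted p of 0.0304 and an adjusted p of 0.665 in limma. In transgenic thymus the Bbc3 levels of mice 1 and 2, with the higher Actb ratio, lay above those of mice 3 and 4, and in wild type thymus they did so too. The genotype difference was 0.30 within mice 1 and 2 and 0.35 within mice 3 and 4. Some marker means also differed between thymi without overlap. Immature thymocyte markers were at 11.40 to 11.47 in transgenic and 11.50 to 11.53 in wild type thymus. B cell markers were at 6.79 to 7.43 and 6.40 to 6.72, and macrophage markers at 9.27 to 9.36 and 9.07 to 9.25. The other lists overlapped. The part of these cells in the thymus differences of Bbc3 and Pmaip1 was not tested. In mesenteric node the wild type group held an array listed below 0 for Bbc3, which gave an uncertain difference of 0.53 ± 0.80, and without that array the difference was -0.39.

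The other death genes did not separate the genotypes. Bcl2l11 differed by -0.03 ± 0.08 in both thymus and peripheral node, by 0.03 ± 0.08 in mesenteric node and by -0.04 ± 0.11 in spleen (SE, n = 4 each). Pmaip1 encodes NOXA, a BH3-only protein that blocks MCL1 and A1, and its thymus levels overlapped, at 7.23, 5.94, 7.14 and 6.57 in transgenic mice, against 6.20, 6.57, 6.24 and 6.66 in wild type mice. The transgenic thymi held both the highest and the lowest of these levels, and the difference of 0.29 ± 0.27 did not pass.

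Neither nuclear receptor gene passed. Nr4a1 encodes Nur77, whose level follows the strength of a recent antigen receptor signal, and its differences were 0.18 ± 0.12 in thymus, 0.09 ± 0.12 in spleen, 0.15 ± 0.10 in mesenteric node and 0.21 ± 0.10 in peripheral node, with adjusted p-values of 0.650 to 0.972 (limma). Nr4a3 (NOR-1) acts redundantly with Nur77 in mouse thymocyte deletion, and its differences lay between -0.16 ± 0.13 in mesenteric node and 0.15 ± 0.16 in thymus. 

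Other genes induced by the antigen receptor stood higher in transgenic spleen without passing. Of 13 such genes, 7 had an unadjusted p under 0.05 with transgenic higher, where 4.22% of all probe sets did, and 0 passed after adjustment (limma). Their median difference was 0.43, against 0.01 over all probe sets. Pdcd1, which encodes the inhibitory receptor PD-1, differed by 1.19 ± 0.19 (adjusted p = 0.32), and Nr4a2, the relative of Nr4a1, by 1.31 ± 0.32 (adjusted p = 0.53; SE, n = 4 each). Germinal centre, plasma cell and T cell markers were all higher in transgenic spleen without overlap, as given above, and their part in this was not tested.

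The survival genes gave small differences on their representative probe sets. Bcl2, the founding survival gene of the family, differed by 0.03 ± 0.11 in thymus and -0.30 ± 0.15 in peripheral node (adjusted p = 0.966 and 0.672, limma). Its probe sets differed in spleen, where the representative one gave -0.04 ± 0.18 and another gave 0.43 ± 0.13, with groups that did not overlap and an adjusted p of 0.540. Bcl2l1 in spleen had transgenic levels of 9.85, 10.13, 10.04 and 9.45, against 9.87, 10.60, 9.93 and 10.66 in wild type mice, and 2 wild type spleens stood above the rest. Erythroid markers also varied between spleens, with list means of 9.78 to 11.03 in transgenic and 10.83 to 11.99 in wild type spleen. The Bcl2l1 difference was -0.40 ± 0.23 (adjusted p = 0.671), and the part of red cell precursors in it was not tested. In thymus its representative probe set gave 0.06 ± 0.15. A second Bcl2l1 probe set gave -0.56 ± 0.30 in thymus, -0.82 ± 0.45 in spleen and -0.37 ± 0.51 in mesenteric node. A further one passed the filter in thymus alone, at -1.12 ± 0.66. None of these differences passed, and the groups overlapped. Mcl1, which encodes a short-lived survival protein needed by lymphocytes at every stage, differed by 0.03 to 0.08 in the 4 tissues.

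**Figure D3:**
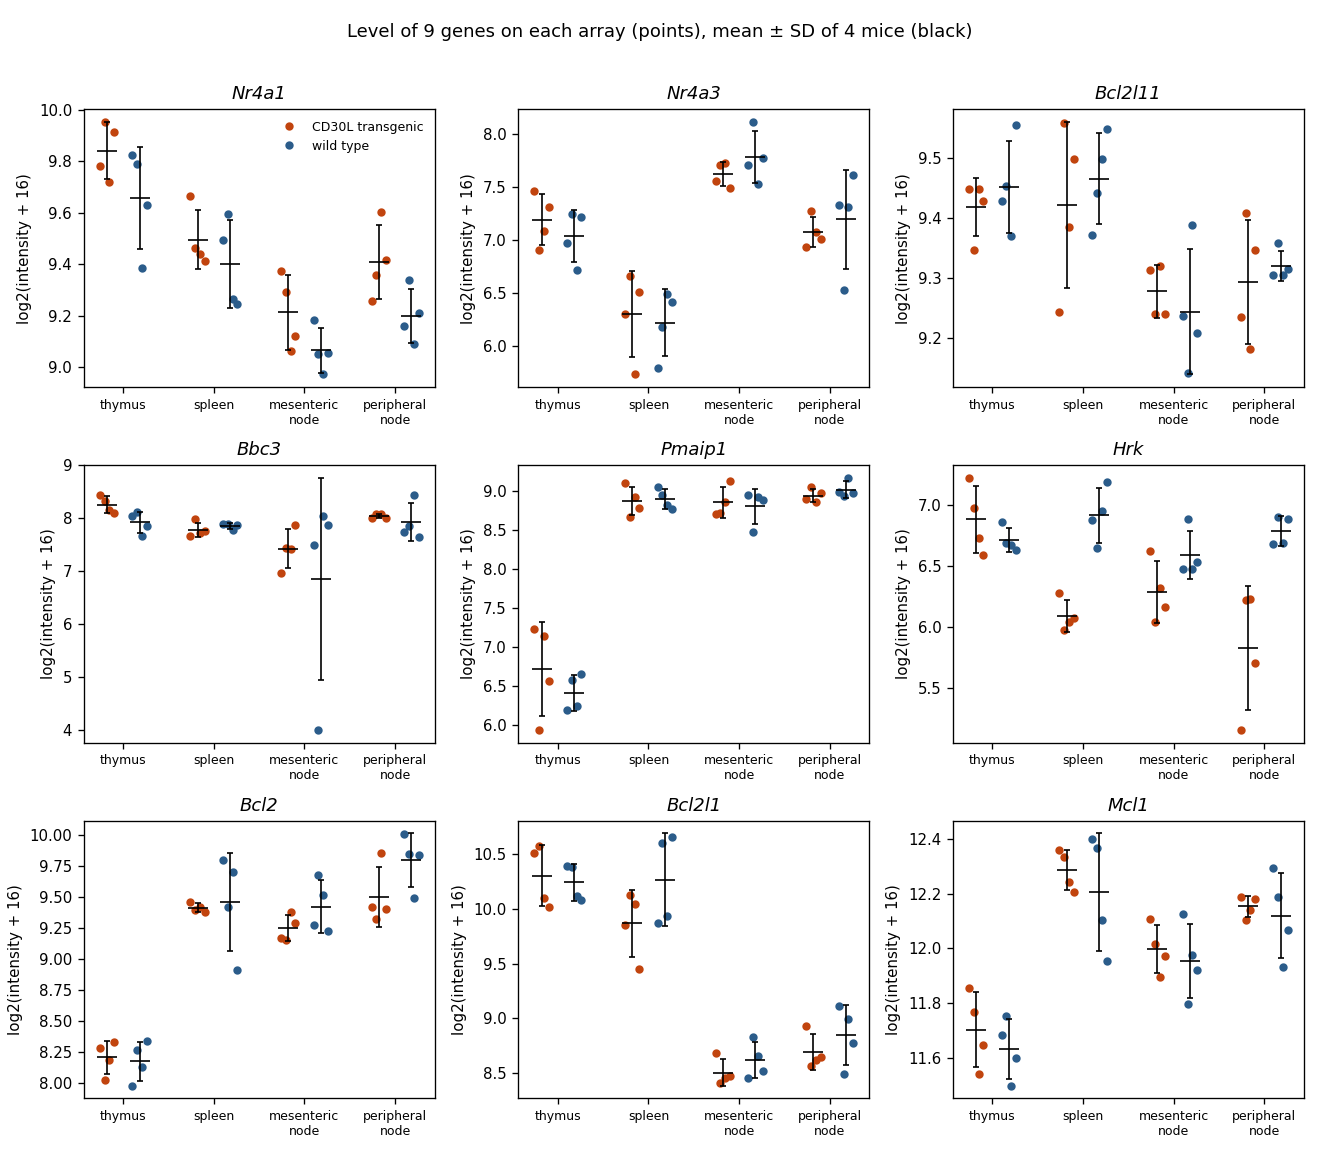
Level of the 9 members (log2 of intensity plus 16, normalized over all 32 arrays) in thymus, spleen, mesenteric node and peripheral node, in 1 panel per gene. Points are arrays and bars show mean and SD, with transgenic mice left of wild type mice. Pmaip1 and Bcl2 are low in thymus, Bcl2l1 is high in thymus and spleen, and the genotypes lie close together for most genes.

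The second comparison set the thymus against each peripheral tissue within a genotype, with the mouse as a block, because every mouse gave all tissues. The thymus had less Pmaip1, Bcl2 and Mcl1 than spleen or either node in both genotypes, more Bcl2l1 than the nodes, and more Nr4a1 than all of them. In transgenic mice 3 of 9 members were higher and 3 lower in thymus than in peripheral node, 4 higher and 3 lower than in mesenteric node, and 5 higher and 3 lower than in spleen. In wild type mice the counts were 2 higher and 3 lower against peripheral node, 2 and 4 against mesenteric node, and 2 and 3 against spleen.

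Differences between these tissues were common, and the members' counts have to be read against that. In transgenic mice 48.6% of all probe sets passed between thymus and peripheral node (23.9% higher, 24.8% lower). Between thymus and mesenteric node 51.4% passed (26.3% higher, 25.1% lower), and between thymus and spleen 47.9% (25.2% higher, 22.7% lower). In wild type mice the shares were 57.1% (28.4% higher, 28.7% lower), 55% (28.6% higher, 26.4% lower) and 50% (26.4% higher, 23.6% lower).

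**Figure D4:**
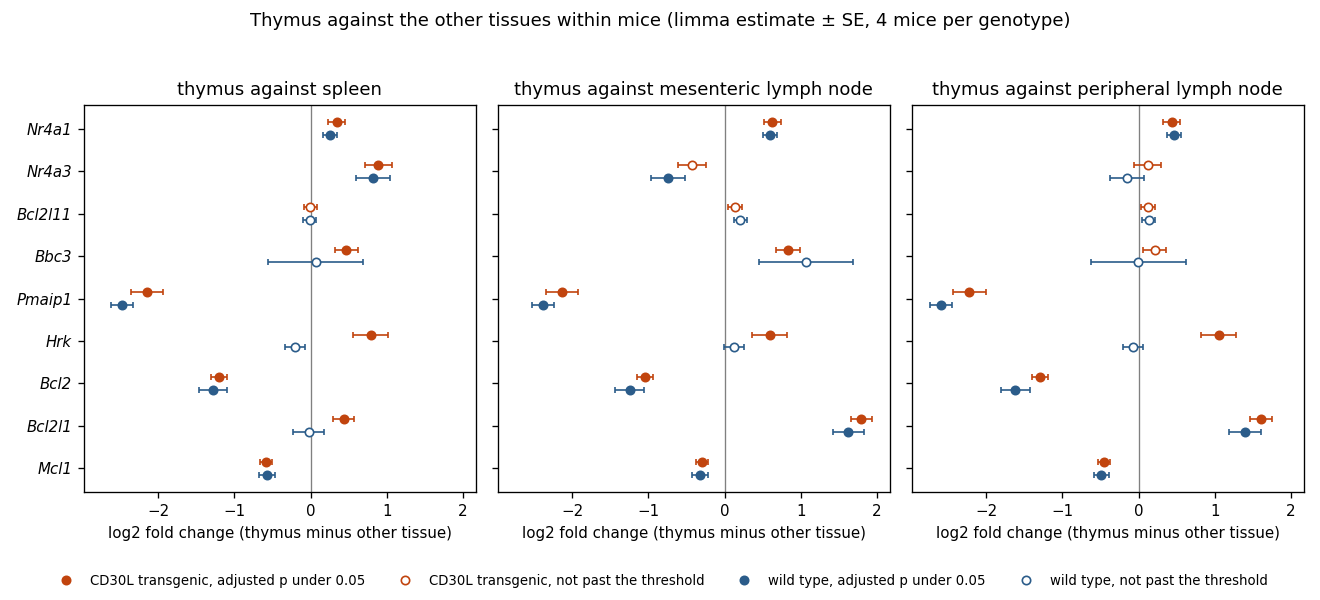
Thymus minus spleen, mesenteric node or peripheral node (log2) for the 9 members, in transgenic and wild type mice. Points are limma estimates with standard errors, and filled points passed an adjusted p of 0.05. Pmaip1 and Bcl2 lie below -1 in all comparisons, and Bcl2l1 lies above 1 against both nodes only.

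Pmaip1 showed the widest gap. Its thymus levels were 7.23, 5.94, 7.14 and 6.57 in transgenic mice and 6.20, 6.57, 6.24 and 6.66 in wild type mice, while all 24 other arrays lay between 8.47 and 9.17. The thymus was 4.66-fold below peripheral node in transgenic mice (-2.22 ± 0.21, adjusted p = 3.94e-06) and 6.06-fold below it in wild type mice (-2.60 ± 0.14, adjusted p = 2.78e-08; limma, SE, n = 4 mice). Against spleen the log2 difference was -2.15 in transgenic mice and -2.48 in wild type mice, and against mesenteric node -2.13 and -2.39. It passed under every alternative run.

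B cell markers moved with Pmaip1. The mean of 9 such markers was 6.79 to 7.43 in transgenic and 6.40 to 6.72 in wild type thymus, and 10.69 to 11.18 in transgenic and 10.71 to 11.14 in wild type peripheral tissues. The genes whose levels were most like those of Pmaip1 over the 32 arrays were Rnase6, Ncf4 and Cnr2, with Pearson's r of 0.984, 0.983 and 0.982. These arrays fall into thymus and the rest, so the coefficients mainly describe that split, and the part of B cells in the gap was not tested.

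**Figure D5:**
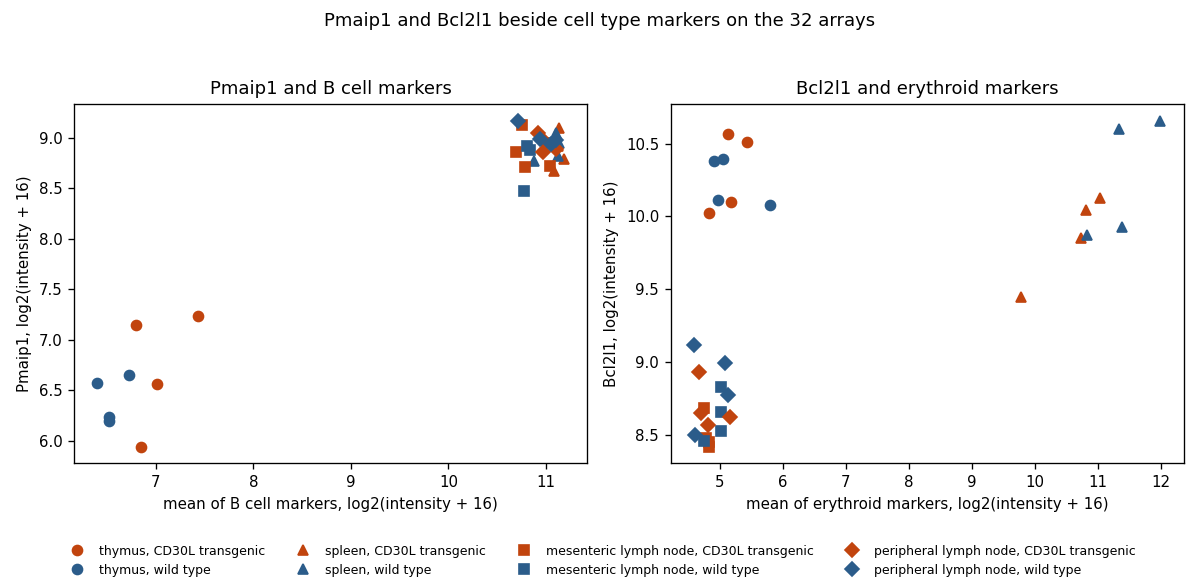
Pmaip1 level against the mean of B cell markers, and Bcl2l1 level against the mean of erythroid markers (both log2), for the 32 arrays by tissue and genotype. Thymus arrays sit low on both axes for Pmaip1, and spleen arrays stand apart by erythroid markers while thymus arrays have high Bcl2l1 without them.

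Bcl2 levels were 8.28, 8.02, 8.18 and 8.33 in transgenic and 7.98, 8.26, 8.12 and 8.33 in wild type thymus. Every other array was at 8.91 or above, so the thymus did not overlap with any tissue. The thymus lay 2.45-fold below peripheral node in transgenic mice (-1.29 ± 0.10, adjusted p = 9.54e-07) and 3.07-fold below it in wild type mice (-1.62 ± 0.19, adjusted p = 1.4e-05; limma, SE, n = 4 mice). Of its other probe sets, 1 passed in the same direction in every comparison, at -1.34 to -0.57, another passed in transgenic mice at -0.57 to -0.41 but not in wild type mice at -0.41 to -0.16, and another passed in none, at -0.36 to 0.32. With the Bcl2 probe set of largest variance as the representative, thymus minus either node did not pass in either genotype, while thymus minus spleen did. Which transcript each probe set reads was not tested.

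Bcl2l1 went the other way. Its levels were 10.51, 10.57, 10.10 and 10.02 in transgenic and 10.39, 10.38, 10.12 and 10.08 in wild type thymus, against 8.41 to 8.93 in transgenic and 8.46 to 9.12 in wild type lymph nodes. The thymus was 3.05-fold above peripheral node in transgenic mice (1.61 ± 0.14, adjusted p = 1.91e-06) and 2.63-fold above it in wild type mice (1.40 ± 0.21, adjusted p = 9.8e-05; limma, SE, n = 4 mice). Spleen also lay above the nodes, by 1.17 over peripheral node in transgenic and 1.42 in wild type mice, with 24.6% and 38.8% of all probe sets passing in those pairs. Between thymus and spleen the difference was 0.43 ± 0.14 in transgenic mice (adjusted p = 0.0238) with overlapping values, and -0.02 ± 0.21 in wild type mice (adjusted p = 0.934). The transgenic thymus minus spleen call was lost without mouse 1 or 4 and without the arrays with signal of another tissue. These values are of the representative probe set. A second Bcl2l1 probe set gave a thymus minus spleen of 1.44 in transgenic and 1.18 in wild type mice (wild type adjusted p = 0.0951, limma). The others did not pass the filter on low signal, and gave 0.72 and 1.83 in transgenic and 1.10 and 1.80 in wild type mice.

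On its representative probe set Bcl2l1 was high at these 2 sites, thymus and spleen, which the erythroid markers separated. Their mean was at most 5.43 in transgenic and 5.79 in wild type mice outside the spleen, thymus included, and Bcl2l1 was high in thymus arrays that lay at that low level. Alas2, the erythroid enzyme of haem synthesis, had intensities of 2129 to 6592 in spleen and -23.4 to 93.5 in thymus. Immature thymocyte markers averaged 11.40 to 11.47 in transgenic and 11.50 to 11.53 in wild type thymus, and at most 7.35 and 7.86 elsewhere. The part of red cell precursors or of thymocytes in these Bcl2l1 levels was not tested.

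Mcl1 was lower in thymus by a smaller margin. Its levels were 11.85, 11.77, 11.54 and 11.65 in transgenic and 11.68, 11.75, 11.50 and 11.60 in wild type thymus, against 12.36, 12.33, 12.24 and 12.21 in transgenic and 12.40, 12.37, 12.11 and 11.95 in wild type spleen. The thymus minus spleen difference was -0.58 in transgenic mice (adjusted p = 5.42e-05) and -0.57 in wild type mice (adjusted p = 0.000559). A pair of other Mcl1 probe sets passed in the same direction throughout, at -0.89 to -0.39. One more passed in all comparisons but transgenic thymus minus mesenteric node, at -0.31 to -0.18, another passed against spleen in both genotypes and against peripheral node in transgenic mice, at -0.39 to -0.04, and the last passed in no comparison, at -0.08 to 0.28. The step from thymus to mesenteric node, -0.30 in transgenic and -0.32 in wild type mice, was the least stable: it no longer passed without the arrays with signal of another tissue in transgenic mice (adjusted p = 0.071), nor in wild type mice without mouse 1, 3 or 4 (adjusted p = 0.125, 0.116 and 0.056).

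Nr4a1 was the nuclear receptor gene that was higher in thymus throughout. Its levels were 9.78, 9.95, 9.72 and 9.91 in transgenic and 9.82, 9.79, 9.39 and 9.63 in wild type thymus, against 9.38, 9.29, 9.06 and 9.12 in transgenic and 9.18, 9.05, 8.97 and 9.06 in wild type mesenteric node. Thymus and mesenteric node did not overlap, and the difference was 0.63 in transgenic mice (adjusted p = 0.000572) and 0.59 in wild type mice (adjusted p = 0.000168). Against peripheral node it was 0.43 ± 0.11 and 0.46 ± 0.09, and against spleen 0.35 and 0.26 (adjusted p = 0.0231 and 0.035). The spleen comparison did not hold without any 1 of the wild type mice, or without transgenic mouse 2 or 4, and the peripheral node comparison in transgenic mice did not hold without mouse 2. With the arrays left without normalization, the wild type difference from spleen was -0.02. Without the arrays with signal of another tissue that spleen comparison did not pass either. Against peripheral node neither genotype passed without normalization or with a common median in its place, whereas thymus minus mesenteric node passed under every alternative run.

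Nr4a3 followed a different order, with mesenteric node highest and spleen lowest. Its levels were 7.46, 6.91, 7.09 and 7.31 in transgenic and 6.98, 7.25, 6.72 and 7.22 in wild type thymus, against 6.31, 6.66, 5.73 and 6.51 in transgenic and 5.80, 6.18, 6.49 and 6.42 in wild type spleen. No spleen reached a thymus of its genotype, and thymus minus spleen was 0.89 in transgenic mice (adjusted p = 0.00157) and 0.82 in wild type mice (adjusted p = 0.00961). Mesenteric node levels reached 7.73 in transgenic and 8.12 in wild type mice, and thymus minus mesenteric node passed in wild type mice but not in transgenic mice (-0.74 ± 0.23, adjusted p = 0.0147, against -0.43 ± 0.18 and 0.0646 in transgenic mice). In wild type mice the mesenteric and spleen calls were both lost without mouse 1, and the spleen call also without the arrays with signal of another tissue. Thymus minus peripheral node did not pass, at 0.12 and -0.15. The other Nr4a3 probe sets were at or below 0 on 17 and 27 of the 32 arrays. The genes most like Nr4a3 were Mgp, Bche and Lum, at Pearson's r of 0.887, 0.875 and 0.867 over 32 arrays, and Mgp and Lum encode matrix proteins of stromal cells. Adipocyte markers, given above, were also lowest in spleen, and the part of stroma or fat in the Nr4a3 order was not tested.

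Among the death genes, Bcl2l11 was level across tissues on its representative probe set. Its levels lay between 9.18 and 9.56 in all transgenic and between 9.14 and 9.55 in all wild type arrays, and none of the 6 thymus comparisons passed, at -0.01 to 0.21. A second probe set was higher in thymus than in peripheral node by 0.55 in transgenic (adjusted p = 0.041) and 0.97 in wild type mice (adjusted p = 0.00014), and than in mesenteric node by 0.67 and 0.89, while its thymus minus spleen values of 0.04 and 0.17 did not pass. Of the other Bcl2l11 probe sets, 1 lay at 0.29 to 0.46 against the nodes and 1 at -0.15 to 0.24, and neither passed in any thymus comparison. The remaining probe set did not pass the filter on low signal.

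Hrk passed between thymus and each other tissue in transgenic mice. Thymus minus peripheral node was 1.05 ± 0.23 (adjusted p = 0.00255), minus mesenteric node 0.59 (adjusted p = 0.0490) and minus spleen 0.79 (adjusted p = 0.0144) in transgenic mice. The wild type values were -0.07, 0.12 and -0.20 and did not pass. The mesenteric value overlapped between tissues and did not pass under several alternatives, and the spleen value did not pass without mouse 2 (adjusted p = 0.062). The test of the difference between genotypes in these contrasts, given above, did not pass.

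Bbc3 was higher in transgenic thymus than in mesenteric node by 0.83 ± 0.16 (adjusted p = 0.000782) and than in spleen by 0.47 (adjusted p = 0.0251), and no wild type comparison passed, at -0.00 against peripheral node, 1.07 ± 0.62 against mesenteric node and 0.07 against spleen. The transgenic spleen comparison did not pass without mouse 1, 2 or 3 (adjusted p = 0.071, 0.073 and 0.093). Without the wild type array that was below 0 for Bbc3, the wild type thymus minus mesenteric node difference was 0.06.

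Beyond the thymus, the pairs of peripheral tissues differed in fewer members. Spleen minus mesenteric node had 2 members higher and 1 lower in each genotype, where 27.4% of probe sets passed in transgenic mice (13.1% higher, 14.2% lower) and 34.8% in wild type mice (16.6% higher, 18.2% lower). Spleen minus peripheral node had 1 higher and 1 lower in each genotype, against shares of 10.8% higher and 13.8% lower in transgenic and 17.8% higher and 21% lower in wild type mice. Nr4a3 was the lower one in both pairs, at -1.32 in transgenic and -1.56 in wild type mice for spleen minus mesenteric node, and at -0.77 and -0.97 for spleen minus peripheral node. Between the nodes no member passed in either genotype, where 0.751% of probe sets passed in transgenic and 2.19% in wild type mice.

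Related genes from lists outside the 9 members were read in the same fits. Their counts stand against 26.4% of all probe sets higher and 23.6% lower for wild type thymus minus spleen, and 28.4% higher and 28.7% lower for thymus minus peripheral node. Of 11 further BCL2 family genes tested, 2 were higher and 1 lower in wild type thymus than spleen, with a median of 0.12 against 0.05 over all probe sets, a smaller share than the 50% of all probe sets that passed, and 3 were higher and 4 lower than in peripheral node. Bnip3, a mitochondrial BH3-like protein induced by hypoxia, was at 1.08 against spleen and -1.25 against peripheral node in transgenic thymus, and at 0.81 ± 0.19 and -1.71 in wild type thymus. Bok, a BAX-like effector, was lower in thymus in both, at -0.71 against spleen and -1.21 against peripheral node in wild type mice. Bak1 and Bid, the effector and the BH3-only protein cut by caspase 8, were at -0.09 and 0.12 against wild type spleen and did not pass there.

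Genes of survival signals were mostly lower in thymus. In wild type mice 3 of 13 were higher and 9 lower than in spleen, with a median of -0.69 against 0.05 over all probe sets, and 3 were higher and 8 lower than in either node, with medians of -0.99 and -0.91. Tnfrsf13c, the BAFF receptor of B cells, lay at -3.90 against spleen, and Relb, an NF-kB subunit, at -1.44. Foxo1, a transcription factor that maintains naive lymphocytes, was at -1.25 and Stat5b, which carries cytokine signals, at 1.33. Tnfrsf13c is also a B cell gene, and B cell markers were low in thymus as given above. The part of B cells in its value was not tested.

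Genes induced by the antigen receptor were mixed. In wild type mice 7 of 13 were higher and 4 lower in thymus than spleen, with a median of 0.52, while 5 were higher and 6 lower than in peripheral node, with a median of -0.17. Egr1, an immediate early factor, was 1.45 above spleen and Nr4a2, the relative of Nr4a1, 1.62 above it, whereas Egr3 was lower at -1.87. In transgenic mice 5 of 13 were higher and 4 lower than in spleen, with a median of 0.01. Immediate early genes, which tissue handling can induce, were lower in thymus for 9 of 17 and higher for 4 against wild type spleen, with a median of -0.38.

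Positive selection and maturation genes, the apoptosome and caspase genes and the p53 pathway completed the lists. Of 13 selection and maturation genes, 7 were higher and 6 lower in wild type thymus against each other tissue. Themis, needed for positive selection, was 3.66 above spleen and Klf2, a factor of mature migrating T cells, was lower at -2.61. Of 18 apoptosome and caspase genes, 3 were higher and 8 lower than in spleen, against 26.4% higher and 23.6% lower of all probe sets, with a median of -0.28, and Birc3, an inhibitor of apoptosis, was lower at -1.40. Of 11 p53 pathway genes, 5 were higher and 2 lower than in spleen, with a median of 0.05, the same as over all probe sets to 2 decimals, and Perp, a p53 target, was 3.81 above spleen.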

How the data were processed

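Gene expression was measured on Affymetrix arrays from 32 tissue samples of 8 mice. The deposited values were linear intensity values for 45101 probe sets per array; the algorithm the authors used is not given in the sources used here. On each array 14.9% to 18.4% of the values were negative, and the trimmed mean ran from 106 to 272. From these values, with 64 control probe sets left out, negatives were replaced by 0 and log2 of the value plus 16 was used. Arrays were quantile normalized within a tissue for genotype tests, and over all 32 arrays for tissue comparisons and most levels. The Hrk, Bbc3 and flagged levels named above were those normalized within a tissue. Probe sets above the 40th percentile of the mean, 27022 of them, were tested with limma 3.58.1 in R 4.3.3, calling an adjusted p (Benjamini-Hochberg) under 0.05. Genotypes were compared per tissue without a block, tissues per genotype with the mouse as a block, and the tissue difference of the genotype effect on per-mouse differences. The fits were tested on simulated data.

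Of 45037 probe sets, 34945 carried 1 symbol, 932 several and 9160 none. The probe set with the highest mean represented a gene. All members are named and their probe sets described by their values, with up to 4 genes of each list with the smallest p and the 3 genes most alike in level; Bak1, Bid, Tnfsf8 and Nr4a2 were named after their values were seen. The members and lists were chosen with earlier results of these data known. The labels do not say whether the mice were processed separately, so p-values measure the spread between these mice. Other pseudocounts, scalings, filters, blocks, probe sets and left-out mice were tried.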

Additional observations from a re-analysis of the deposited data

Results flagged for a closer look

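In 3 of 72 groups of 4 arrays, 1 value stood apart from the other 3 by Dixon's test, and chance gives about 1 in 20 groups. All lay in wild type mesenteric node mouse 2, whose array also had the pancreas marker mean of 13.2. Hrk was 6.71 there, with the next value at 6.36. Pmaip1 was 8.32, with the next value at 8.72. Bbc3 was 4, which is the floor that a negative intensity gives, with the next value at 7.32. The part of pancreas tissue in these values was not tested.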

How the results depend on the processing

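Over all alternatives, 307 counts stayed within 1.5 times or at 0, 6 lay above that and 9 below. The genotype tests, their differences between tissues and the pair of nodes had 0 members in the main fits, so their counts of 0 say little about stability. Of the single gene values, 2718 stayed the same, 62 lost a call, 23 gained one, 69 moved in size and 34 were reversed. A single fit over all arrays called 1 member in peripheral node and 1 in spleen, with or without the mouse as a random block, against 0 in the separate fits. The single fit without that block called 107 of all probe sets in peripheral node and 223 in spleen, against 10 and 3. Without normalization, transgenic thymus minus spleen had 5 members passing in place of 8, wild type thymus minus spleen 3 in place of 5, and transgenic mesenteric minus peripheral node 1 in place of 0. With the probe set of largest variance, transgenic spleen minus peripheral node had 0 in place of 2 and spleen minus mesenteric node 0 in place of 3. With an intensity trend and robust moderation, wild type spleen minus mesenteric node had 5 in place of 3. Without arrays with signal of another tissue, wild type thymus minus spleen had 3 and spleen minus peripheral node 1.

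Leaving out each mouse gave 5 to 6, 6 to 7 and 5 to 7 members in transgenic thymus minus peripheral node, mesenteric node and spleen, and 5, 4 to 6 and 3 to 4 in wild type mice. The lowest counts were 5 without transgenic mouse 2 and 3 without wild type mouse 1. Spleen minus peripheral node gave 2 in transgenic and 1 to 2 in wild type mice (1 without mouse 1), spleen minus mesenteric node 2 to 3, and the nodes, the genotype tests and the tissue differences of the genotype effect 0. Deviations of same-numbered mice of the 2 genotypes correlated at -0.44 to 0.33, above 0.1 in 3 of 4 pairs in spleen and in fewer in the other tissues, so the numbers were not treated as pairs. With the replicate block on mouse number, 0 members passed in each tissue; 2 probe sets passed in peripheral node against 10, and 0 in spleen against 3.

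Values that changed sign, cause not tested: without normalization, genotype differences of Bcl2l11 (0.14) and Pmaip1 (0.11) in peripheral node and Nr4a1 in spleen (-0.12), Bcl2l11 thymus minus peripheral node (-0.0959 transgenic, -0.0332 wild type), spleen minus peripheral node in transgenic mice for Bcl2l11 (-0.14), Nr4a1 (-0.19) and Mcl1 (-0.11), and Nr4a1 wild type thymus minus spleen (-0.0151). With the largest-variance probe set, genotype differences were 0.21 for Bcl2 in peripheral node and -0.36 for Bcl2 and -0.56 for Bcl2l1 in thymus; spleen minus peripheral node for Bcl2 was 0.71 (transgenic) and 0.93 (wild type); wild type thymus minus spleen for Bcl2l1 was 1.18; wild type mesenteric minus peripheral node was 0.00764 for Bcl2 and 0.87 for Bcl2l1. Mice 1 and 2 alone gave 0.19 for Nr4a3 in peripheral node, and mice 3 and 4 alone -0.33 in spleen. With a common median, Bcl2l11 thymus minus peripheral node was -0.0290 (transgenic) and -0.0663 (wild type), and spleen minus peripheral node -0.0639 (transgenic) and -0.00622 (wild type); for that pair Nr4a1 and Mcl1 gave -0.11 and -0.0303 in transgenic and Mcl1 -0.12 in wild type mice; spleen minus mesenteric node in transgenic mice was -0.0256 for Bcl2l11, -0.00713 for Bcl2 and -0.0275 for Mcl1, and the Mcl1 genotype difference of thymus minus mesenteric node was -0.21. Without arrays with signal of another tissue, wild type Hrk spleen minus peripheral node was -0.14, and mesenteric minus peripheral node was 0.0183 for Pmaip1, 0.12 for Bbc3 and 0.0850 for Bcl2l1.

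Scaling moved the split of calls: without normalization, higher calls were 31.3% of calls in transgenic thymus minus peripheral node against 49.1%, and 27.9% in wild type thymus minus spleen against 52.9%. Unnormalized medians of all probe sets shifted by -0.33 to 0.33. Low signal limits Hrk, Nr4a3 and the second Bcl2l1 probe sets.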

Other observations

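In peripheral node, Bik, a BH3-only gene outside the members, differed by -0.86 ± 0.20 between transgenic and wild type mice (adjusted p = 0.28, limma). In thymus, Runx3, which drives the CD8 T cell lineage, differed by 0.44 ± 0.10 and did not pass.

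The genes most like a member over the 32 arrays had Pearson's r of 0.622 for Hrk (Krt78), 0.962 for Bcl2 (Ifi209), 0.957 for Bcl2l1 (Foxo4), 0.857 for Nr4a1 (Fem1b), 0.901 for Bbc3 (Usp42) and 0.776 for Bcl2l11 (Asxl2). These arrays share mice and fall into tissues, so the coefficients describe that layout and carry no p.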
